A study of Mus musculus with 6 samples.

Results

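The genes described here make cholesterol and control its synthesis. They are 29 genes chosen by name, which encode enzymes of the cholesterol pathway, the sensors that set its activity, and proteins that carry or modify sterols. Each of the 29 was found by its symbol among the 21461 genes of the deposited count table. The rule uses no measured value, but the members were chosen with earlier results of these data known. Shares of all genes given beside their counts therefore describe the list and are no independent test. The members were followed in the hypothalamic arcuate nucleus (ARC), a region at the base of the brain that regulates feeding. The tissue came from male C57BL/6 mice aged 10 weeks, dissected 24 h after an i.p. injection. The 3 groups received Dex (dexamethasone, a synthetic agonist of the glucocorticoid receptor, GR) at 10 mg/kg, Dex at 10 mg/kg together with Zj7 (a steroidal modulator of GR) at 50 mg/kg, or vehicle. For the mice given both compounds the sample labels state 10 mg/kg alone, and the dose of Zj7 is that of the study's methods and design text. Each group has 2 libraries of poly(A) RNA. The sources used here do not say whether these came from separate mice or pools, so that p-values reflect the variation among these samples, which may be technical. The labels name the vehicle samples alone as fed, and an effect of feeding on the differences from vehicle cannot be told apart from that of the injections. The experiment has no group given Zj7 without Dex.

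The total count was 50704789 to 61122938 per library. Known GR targets were higher in both treated groups. Of 12 glucocorticoid-induced genes, 9 were higher with Dex than with vehicle (5.03% of all genes) and 7 with Dex+Zj7 (3.40% of all genes). *Cdkn1a*, which encodes the cell cycle inhibitor p21, had a log2 fold change of 3.15 with Dex and 2.64 with Dex+Zj7. Between Dex+Zj7 and Dex, 0 of the 12 differed at an adjusted p under 0.05 by edgeR's quasi-likelihood test. All 12 had negative log2 values there, with a median of −0.25. At an unadjusted p under 0.05 by that test, 5 were lower (2.12% of all genes). The unit CPM stands for counts after every library was brought to one total with TMM factors. Markers of the labelled tissue were present, with 9 markers of ARC neurons at a summed level of 272 and 255 CPM under Dex, 220 and 219.9 CPM under Dex+Zj7 and 209 and 302 CPM under vehicle. Genes with a count of 0 in any library had been taken out of the table, so that no gene at 0 could be seen. The 2 vehicle libraries differed in *Pomc*, which had 28.0 CPM in vehicle replicate 1 and 131 CPM in vehicle replicate 2. The counts of glucocorticoid-induced genes were 9 for Dex and 4 for Dex+Zj7 without vehicle replicate 1, and 6 and 4 without vehicle replicate 2.

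Cholesterol is built from acetyl-CoA. The mevalonate arm yields isoprene units, which are joined to squalene, and squalene is closed to lanosterol, the first sterol. A last set of enzymes trims and reduces lanosterol to cholesterol. The pathway is controlled by SREBP-2, a transcription factor made as a membrane protein and encoded by *Srebf2*. When sterols are scarce, SCAP escorts SREBP-2 to the Golgi, where it is cut and freed to enter the nucleus, and when sterols are plentiful, INSIG proteins hold SCAP back in the endoplasmic reticulum. SREBP-2 binds sterol response elements near the starts of the genes of the pathway, together with NF-Y, which binds CCAAT. The blood-brain barrier keeps out plasma cholesterol, so the brain makes its own, largely in oligodendrocytes, which need it for myelin, and in astrocytes, which pass it to neurons on apolipoprotein E.

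The sequences before the starts of *Hmgcs1*, *Msmo1* and *Srebf2* are shown because these 3 members were lower than with vehicle in at least 1 comparison and carry the letters of such an element. Promoter windows of RefSeq (GRCm38.p6, which corresponds to mm10) were found for 25 of the 29 members. A window runs from 250 bases before the start of a gene to 50 bases after it, and the 250 bases before the start are printed 5′ to 3′ on the strand of the gene. Capitals mark TCACNCCA, the letters searched for the sterol response element, and CCAAT, the NF-Y box, which reads ATTGG where it lies on the other strand.
Hmgcs1, chr13:119690101-119690350, plus strand: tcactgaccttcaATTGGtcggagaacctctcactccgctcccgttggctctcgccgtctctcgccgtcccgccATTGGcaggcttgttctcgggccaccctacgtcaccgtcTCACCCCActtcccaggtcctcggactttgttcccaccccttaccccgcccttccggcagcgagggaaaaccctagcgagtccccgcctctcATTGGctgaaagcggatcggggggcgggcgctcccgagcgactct
Srebf2, chr15:82147019-82147268, plus strand: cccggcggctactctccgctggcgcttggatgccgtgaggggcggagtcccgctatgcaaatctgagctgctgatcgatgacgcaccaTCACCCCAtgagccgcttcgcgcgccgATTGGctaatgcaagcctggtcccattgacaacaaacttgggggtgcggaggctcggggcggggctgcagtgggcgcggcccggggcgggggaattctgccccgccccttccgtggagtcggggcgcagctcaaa
Msmo1, chr8:64733579-64733828, minus strand: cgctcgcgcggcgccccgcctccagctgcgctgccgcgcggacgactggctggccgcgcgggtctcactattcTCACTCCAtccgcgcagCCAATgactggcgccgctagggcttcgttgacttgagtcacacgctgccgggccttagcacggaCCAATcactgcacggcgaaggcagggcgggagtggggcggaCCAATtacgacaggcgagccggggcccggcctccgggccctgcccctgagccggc
The sterol motif begins 137 bases before the start of *Hmgcs1*, 162 bases before that of *Srebf2* and 177 bases before that of *Msmo1*, and in each of these windows a CCAAT box lies between it and the start. Searched on both strands, TCACNCCA was in the windows of 4 of 25 members (16.0%), these 3 and *Apoe*, and in those of 4.67% of the 14918 genes of the count table that have a window. CCAAT was in the windows of 21 of 25 members (84.0%) and 42.1% of these genes. ACANNNTGT, the core letters of a GR element, was in the window of 1 of 25 members (4.0%), *Acat2*, and in 5.91% of these genes. The sterol motif ends in CCA and can overlap CCAAT, which it does not in the 3 sequences shown. A match describes the sequence alone.

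With Dex, several genes of cholesterol synthesis and the gene of their main activator were lower than with vehicle. Of the 29 members, 6 were lower and 0 were higher at an adjusted p under 0.05 by edgeR's quasi-likelihood test, where 6.45% of all genes were lower and 5.03% were higher. The 6 are *Hmgcs1*, *Sqle*, *Ebp*, *Dhcr7*, *Srebf2* and *Ch25h*, and apart from *Ch25h* they were lower by 19.5% to 28.1%. The median log2 fold change was −0.18 over the members, against 0.00 over all genes, and 20 of 29 members had a negative value. At an unadjusted p under 0.05, 13 members were lower (14.7% of all genes) and 0 were higher (13.2% of all genes). Both Dex libraries lay below both vehicle libraries for 16 members (28.5% of all genes) and above them for 3 (27.4% of all genes).

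The count of lower members depends on the vehicle libraries. Without vehicle replicate 1 it was 0, when 804 genes of the whole table were called in place of 2464, and without vehicle replicate 2 it was 1, when 538 were called. It was 4 without Dex replicate 2, and 5 without Dex replicate 1, when *Scap* was called higher. The median of the members was −0.18 without vehicle replicate 1 and −0.10 without vehicle replicate 2.

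**Figure D1:**
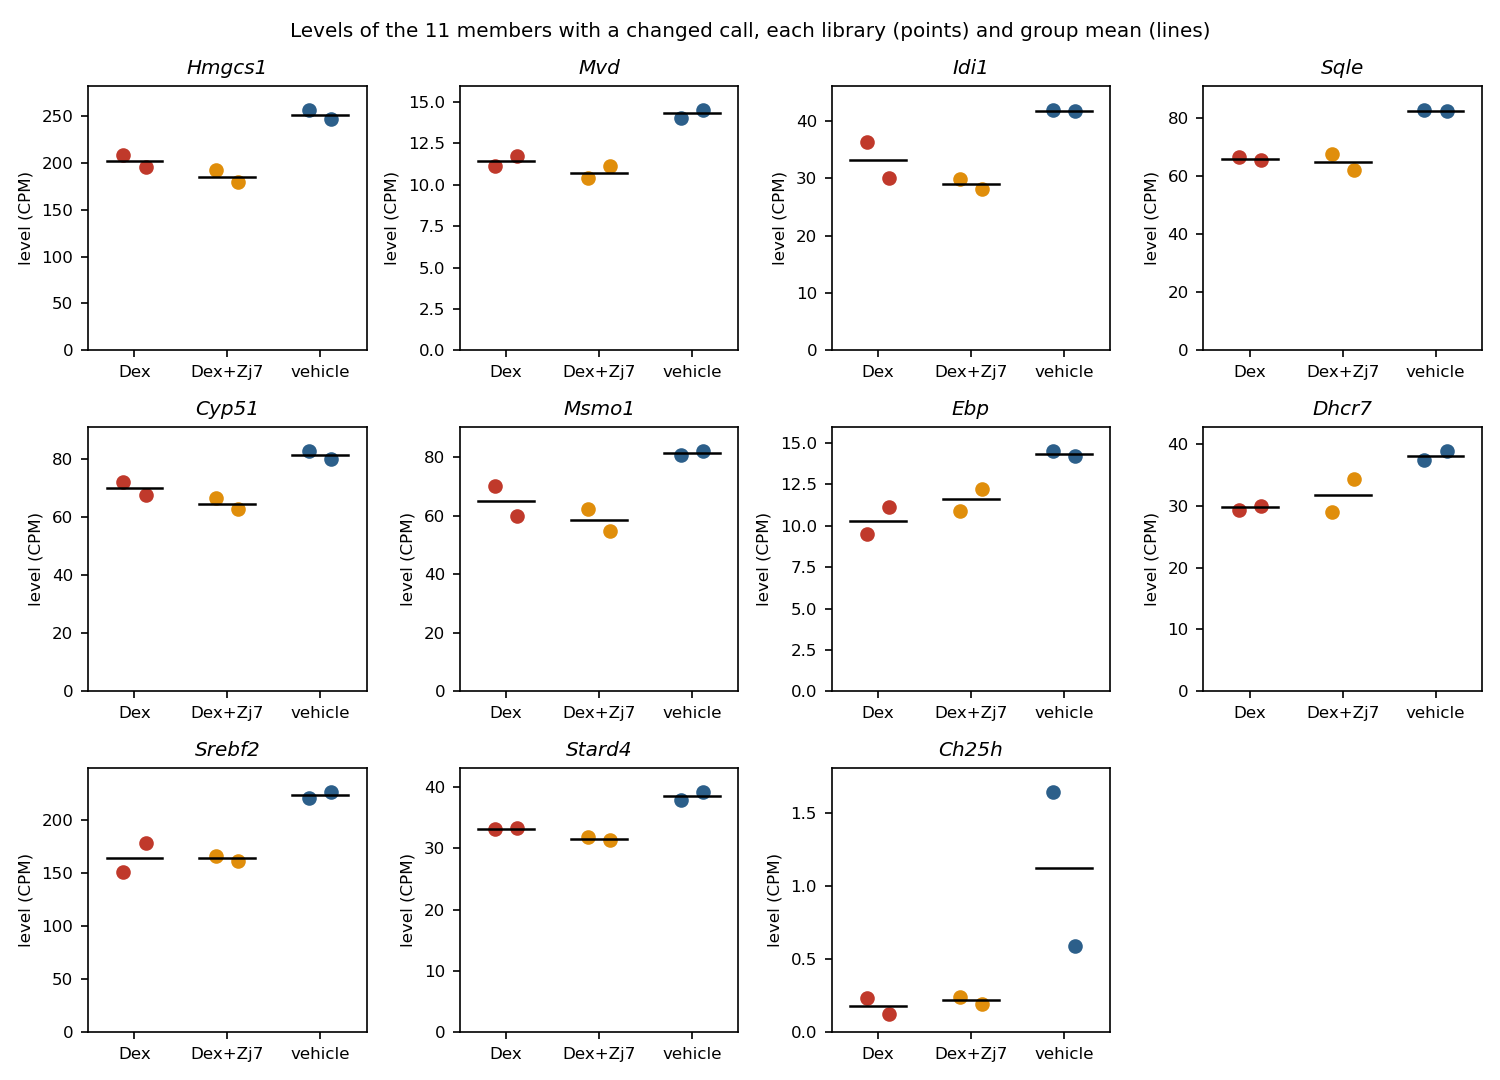
Levels of the 11 members that passed the test against vehicle in at least 1 comparison, in CPM on axes that start at 0. Each point is a library, 2 a group, and lines are group means. All points of Dex and Dex+Zj7 lie below the vehicle points in each panel.

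In the mevalonate arm, *Hmgcs1* (chr13:119690351-119708260) carried the called change. It encodes the cytosolic HMG-CoA synthase, which joins acetyl-CoA to acetoacetyl-CoA. Its level was 208 and 195 CPM with Dex, against 256 and 246 CPM with vehicle. The groups did not overlap, and the mean was 202 ± 9.01 CPM with Dex and 251 ± 7.14 CPM with vehicle (SD, n = 2 each). Its log2 fold change was −0.31 (SE 0.06), with an adjusted p of 0.0180 by edgeR's quasi-likelihood test. An antisense gene, *Gm48342*, shares 12.1% of the exon bases of *Hmgcs1*, and reads there may have been counted for either. The same holds for other members, with 26.7% of the exon bases of *Fdps* shared with another gene and 18.3% of those of *Fdft1*. For *Scap*, *Tm7sf2* and *Ch25h* the share was 13.2%, 12.1% and 11.5%, and some other members had smaller ones. *Mvd*, which encodes the decarboxylase that makes isopentenyl diphosphate, had 11.1 and 11.7 CPM with Dex, against 14.0 and 14.5 CPM with vehicle. *Idi1*, whose product isomerises isopentenyl diphosphate, had 36.3 and 30.1 CPM with Dex, against 41.9 and 41.7 CPM with vehicle. These 2 genes lay apart from vehicle in each library but missed the threshold, with log2 values of −0.32 and −0.33 and adjusted p of 0.0650 and 0.0518 by edgeR's test. The other 5 genes of the arm had log2 values between −0.18 (*Fdps*, farnesyl diphosphate synthase) and 0.09 (*Ggps1*, which makes geranylgeranyl diphosphate for protein prenylation). *Acat2*, which makes the acetoacetyl-CoA that *Hmgcs1* uses, stood at 0.02, with a 95% interval from −0.12 to 0.16.

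Of the 3 genes that lead from farnesyl diphosphate to lanosterol, *Sqle* (chr15:59315092-59331193) was lower. It encodes squalene epoxidase, a rate-limiting enzyme that oxidises squalene. *Sqle* had 66.5 and 65.4 CPM with Dex, against 82.6 and 82.1 CPM with vehicle, a gap far wider than the spread within either group. The log2 fold change was −0.32 (SE 0.06, adjusted p = 0.0151 by edgeR's quasi-likelihood test). *Fdft1*, squalene synthase, had 86.3 and 96.0 CPM with Dex, against 97.2 and 101 CPM with vehicle (log2 −0.12, adjusted p = 0.382 in the same edgeR fit). *Lss*, which closes the ring to lanosterol, stood slightly above vehicle, at 48.6 and 48.3 CPM with Dex, against 47.0 and 43.5 CPM with vehicle (log2 0.10, 95% interval −0.05 to 0.25). So the 3 neighbouring steps had values of both signs, and the test was passed by *Sqle* alone.

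The last 9 enzymes turn lanosterol into cholesterol, and 2 of them were lower with Dex. *Ebp* (chrX:8185329-8193512), which moves the sterol double bond, had 9.51 and 11.1 CPM with Dex, against 14.5 and 14.2 CPM with vehicle. Its log2 fold change was −0.48 (SE 0.11, adjusted p = 0.0304 by edgeR's quasi-likelihood test). *Dhcr7* (chr7:143823167-143848410), the reductase that converts 7-dehydrocholesterol to cholesterol, had 29.3 and 30.0 CPM with Dex, against 37.3 and 38.8 CPM with vehicle. Its log2 fold change was −0.36 (SE 0.09, adjusted p = 0.0343 by edgeR's test). The groups did not overlap for either gene. *Msmo1*, the sterol C4-methyl oxidase, had 70.1 and 59.8 CPM with Dex, against 80.7 and 82.1 CPM with vehicle, and its adjusted p of 0.0504 by edgeR's test was just over the threshold. *Cyp51*, the lanosterol demethylase and the first enzyme of this stretch, had 72.1 and 67.8 CPM with Dex, against 82.8 and 80.1 CPM with vehicle (log2 −0.22, adjusted p = 0.0572 by edgeR's test). Among the other 5, *Tm7sf2*, *Nsdhl*, *Hsd17b7* and *Sc5d* had log2 values of −0.21 to −0.13. *Lbr* stood at 0.13. It encodes the lamin B receptor, a protein of the inner nuclear membrane that also reduces the same sterol bond as the product of *Tm7sf2*.

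**Figure D2:**
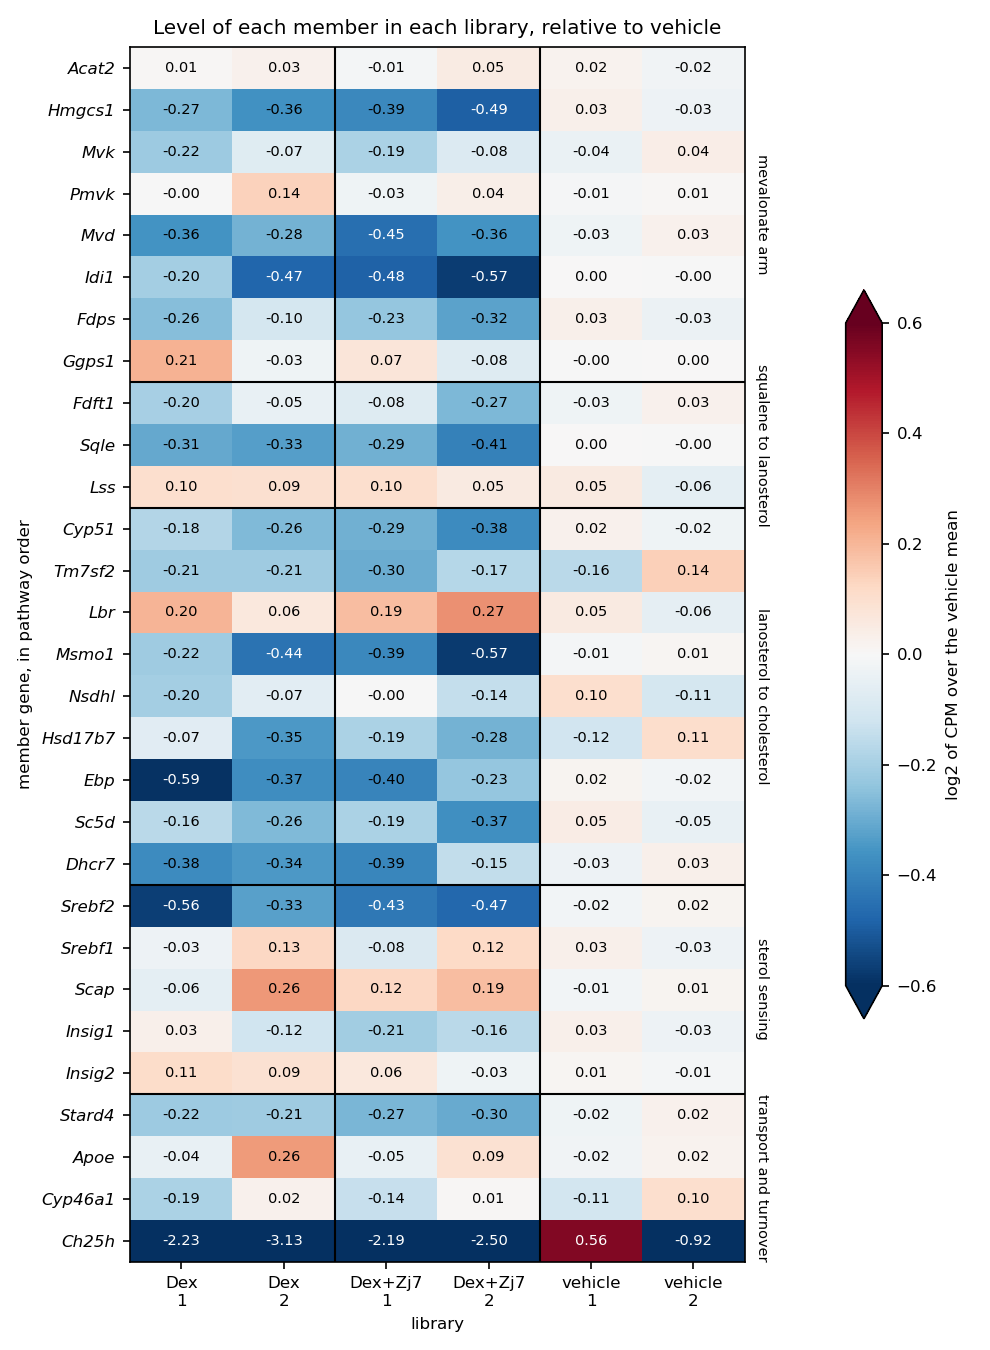
Log2 of the CPM of each member in each library over the mean of the 2 vehicle libraries, with rows in pathway order and colours that saturate at 0.6 in either direction. *Sqle* reads −0.31 and −0.33 with Dex, −0.29 and −0.41 with Dex+Zj7, and 0.00 and −0.00 with vehicle, and *Ch25h* runs beyond the colour scale.

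Among the sensors, *Srebf2* was lower, while the genes of its escort and anchors were not called. *Srebf2* (chr15:82147269-82205379) had 151 and 178 CPM with Dex, against 220.3 and 226 CPM with vehicle. Even the higher Dex library stood well below the lower vehicle library. The log2 fold change was −0.44 (SE 0.08), a fall of 26.4%, with an adjusted p of 0.0119 by edgeR's quasi-likelihood test. *Srebf1*, which encodes SREBP-1, the form that acts mainly on fatty acid genes, had 86.6 and 96.6 CPM with Dex, against 90.3 and 86.8 CPM with vehicle. *Scap* had 97.9 and 122 CPM with Dex, against 101 and 103 CPM with vehicle, and without Dex replicate 2 its log2 value was −0.06. The log2 values were 0.05 for *Srebf1* (95% interval −0.14 to 0.24) and 0.11 for *Scap* (−0.11 to 0.32). *Insig1*, itself a target of SREBP-2, had 82.2 and 74.0 CPM with Dex, against 82.2 and 78.8 CPM with vehicle (log2 −0.04, 95% interval −0.20 to 0.11). *Insig2* had 56.4 and 55.7 CPM with Dex, against 52.7 and 51.9 CPM with vehicle (log2 0.10, 95% interval −0.04 to 0.24). The intervals of these 4 genes reach no lower than −0.20, while that of *Srebf2* runs from −0.62 to −0.26. The counts measure mRNA, and the cutting of SREBP proteins was not measured.

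*Ch25h* showed the widest difference and the lowest level. It encodes cholesterol 25-hydroxylase, which makes 25-hydroxycholesterol, an oxysterol that binds INSIG and restrains SREBP processing, and in mouse brain it is known mainly from microglia. Its counts were 12 and 7 with Dex, against 95 and 32 with vehicle, or 0.237 and 0.127 CPM against 1.64 and 0.591 CPM. The groups did not overlap, but the vehicle libraries differed from each other by more than the lower of them differed from Dex. The log2 fold change was −2.62 (SE 0.55, adjusted p = 0.0214 by edgeR's quasi-likelihood test), with a 95% interval from −3.88 to −1.36. It was −1.70 without vehicle replicate 1, when the call was lost, as it was without either Dex library. The 8 microglia markers moved the same way: 6 of 8 were lower, their median was −1.50, and their summed level was 152 and 152 CPM with Dex, against 251 and 247 CPM with vehicle. None of them was at 0. Their part in the difference of *Ch25h* was not tested. In bulk tissue, fewer cells of a type and less RNA per cell cannot be told apart.

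The other 3 genes of sterol transport and turnover were not called with Dex. *Stard4*, which encodes a cytosolic sterol carrier and is an SREBP-2 target, had 33.1 and 33.3 CPM with Dex, against 37.9 and 39.2 CPM with vehicle (log2 −0.22, adjusted p = 0.0636 by edgeR's test). *Apoe*, which encodes apolipoprotein E, had 1206 and 1486 CPM with Dex, against 1225 and 1263 CPM with vehicle (log2 0.11, 95% interval −0.12 to 0.35). *Cyp46a1*, the neuronal 24-hydroxylase by which cholesterol leaves the brain, had 82.6 and 95.8 CPM with Dex, against 87.4 and 101 CPM with vehicle (log2 −0.08, 95% interval −0.29 to 0.14). For *Apoe* and *Cyp46a1* the libraries of the groups overlapped.

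Zj7 added to Dex moved no member past the threshold. By edgeR's quasi-likelihood test, 0 of 29 members were lower or higher with Dex+Zj7 than with Dex, where 0% of all genes were lower and 0.00466% (1 gene) were higher. DESeq2, edgeR's exact test and limma-voom also called 0 members, and 0 members had an unadjusted p under 0.05 (2.12% of all genes were lower and 3.12% higher at that level). The median of the members was −0.03 and 22 of them had overlapping libraries. Both Dex+Zj7 libraries lay below both Dex libraries for 7 members (14.9% of all genes) and above them for 0 (16.4% of all genes).

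For the genes that were lower with Dex, the values with Zj7 lay on both sides. *Srebf2* had 166 and 161 CPM with Dex+Zj7, against 151 and 178 CPM with Dex (log2 −0.01, 95% interval −0.19 to 0.17), and *Sqle* had 67.5 and 62.1 CPM against 66.5 and 65.4 CPM (log2 −0.03, 95% interval −0.17 to 0.11). For both genes the interval leaves out a rise as large as the difference between Dex and vehicle. *Hmgcs1* had 192 and 179 CPM with Dex+Zj7, against 208 and 195 CPM with Dex (log2 −0.12, 95% interval −0.27 to 0.02). *Ebp* had 10.9 and 12.2 CPM with Dex+Zj7, against 9.51 and 11.1 CPM with Dex (log2 0.17, 95% interval −0.09 to 0.43), and *Dhcr7* had 29.0 and 34.3 CPM against 29.3 and 30.0 CPM (log2 0.10, 95% interval −0.11 to 0.30). The upper ends for *Ebp* and *Dhcr7* come close to the size of the Dex difference, so a near complete return was not told from none at this spread. The smallest unadjusted p among the members were 0.0661 for *Insig1* (log2 −0.14) and 0.0665 for *Idi1* (log2 −0.20) by the test of edgeR, both lower with Dex+Zj7.

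**Figure D3:**
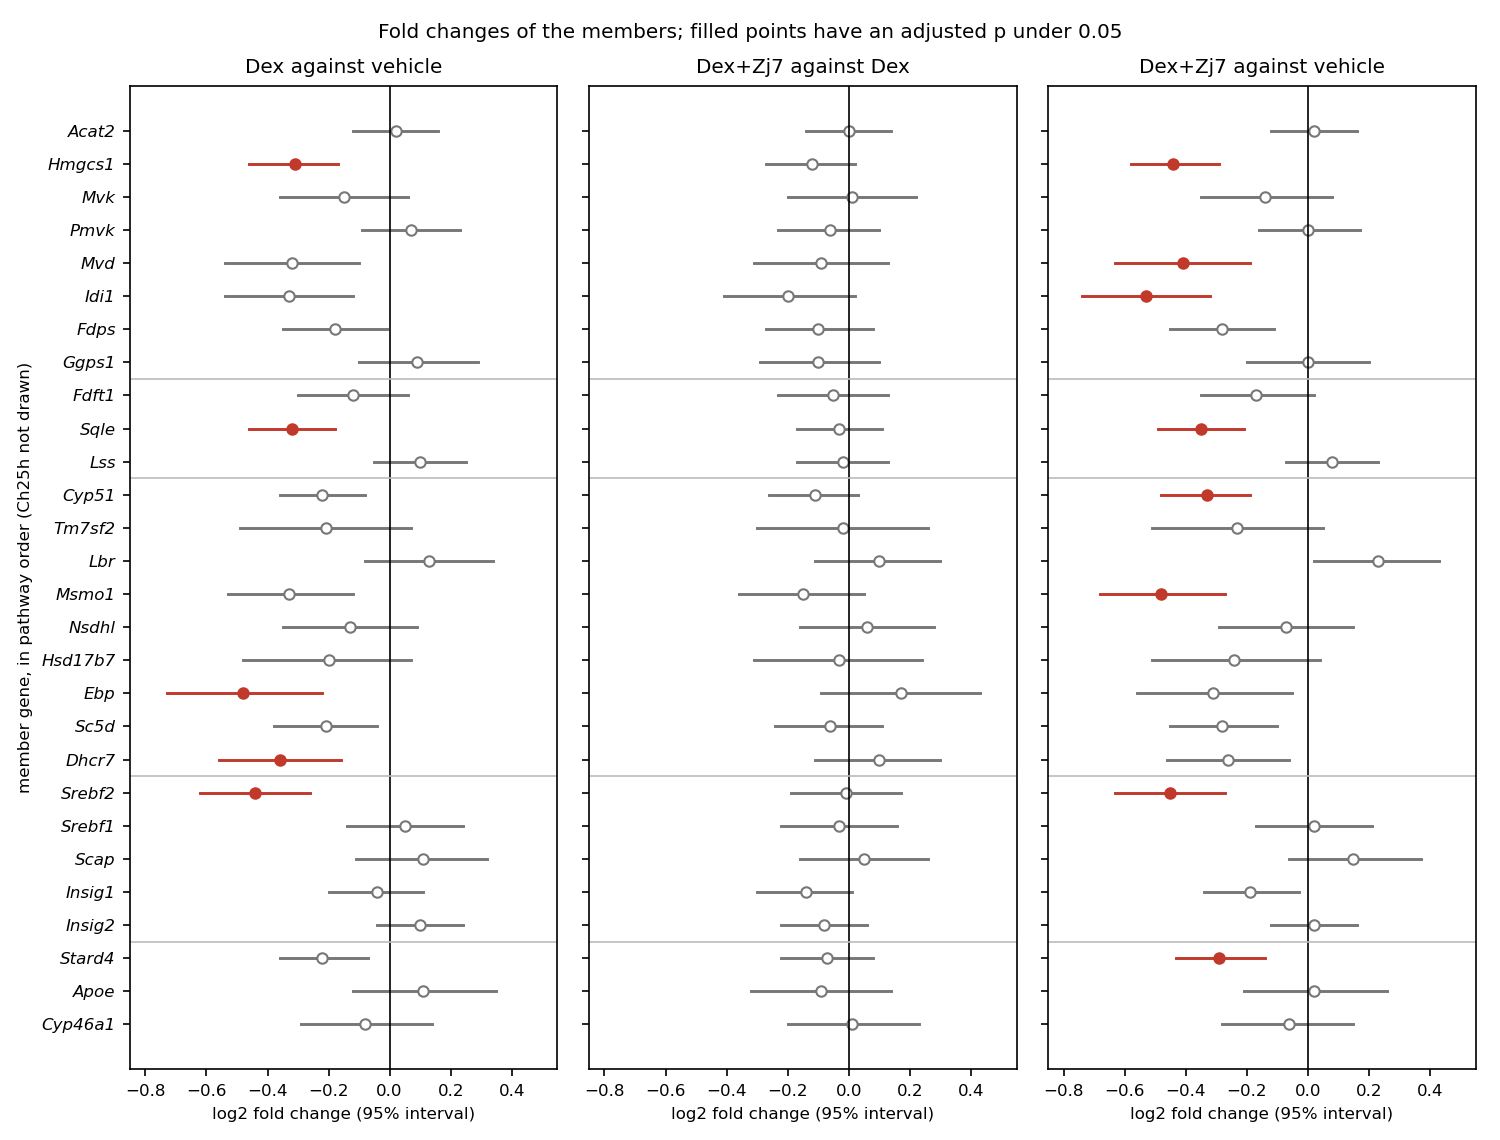
Log2 fold change of 28 members with its 95% interval in each comparison, genes in pathway order. Filled red points have an adjusted p under 0.05. Against vehicle they lie left of 0 with Dex and with Dex+Zj7, and between Dex+Zj7 and Dex no point is filled. *Ch25h* is left out for scale.

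With Dex+Zj7, members were again lower than with vehicle. By edgeR's quasi-likelihood test, 9 of 29 were lower and 0 were higher, where 3.97% of all genes were lower and 3.40% were higher. The median log2 fold change was −0.23 over the members and −0.00 over all genes, and 21 members had a negative value. At an unadjusted p under 0.05, 14 were lower (13.0% of all genes) and 1 was higher (12.1% of all genes), which was *Lbr*. Both libraries lay below vehicle for 18 members (28.7% of all genes) and above it for 2 (29.4% of all genes). Since the vehicle libraries serve in this comparison and in that of Dex with vehicle, the values below are set beside those with Dex and do not stand as a repeat of them. Without vehicle replicate 1 or without Dex+Zj7 replicate 2 the count was 0, without vehicle replicate 2 it was 2, and without Dex+Zj7 replicate 1 it was 3. The genes of the whole table that were called numbered 383, 484, 354 and 311 in these fits, in the same order, in place of 1583, and 0.727% to 1.17% of all genes were lower.

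The 9 include *Hmgcs1*, *Sqle*, *Srebf2* and *Ch25h*, and 5 genes whose adjusted p with Dex alone was above the threshold. These 5 were also called lower with Dex under some of the 8 alternative settings, *Idi1* and *Msmo1* in 6, *Cyp51* in 5 and *Mvd* and *Stard4* in 3. *Idi1* (chr13:8885606-8892396) had 29.9 and 28.2 CPM with Dex+Zj7, against 41.9 and 41.7 CPM with vehicle (log2 −0.53, SE 0.09, adjusted p = 0.0158 by edgeR's quasi-likelihood test). *Msmo1* (chr8:64718123-64733578) had 62.3 and 54.7 CPM, against 80.7 and 82.1 CPM with vehicle (log2 −0.48, SE 0.09, adjusted p = 0.0200 in the same edgeR fit). *Mvd* (chr8:122433596-122443422) had 10.4 and 11.1 CPM, against 14.0 and 14.5 CPM with vehicle (log2 −0.41, SE 0.10, adjusted p = 0.0396 by edgeR's test). In these 3 genes each treated library stood below each vehicle library by more than the treated pair differed. *Cyp51* (chr5:4080674-4104697) had 66.6 and 62.7 CPM with Dex+Zj7, against 82.8 and 80.1 CPM with vehicle (log2 −0.33, SE 0.06, adjusted p = 0.0201 by edgeR's test). *Stard4* had 31.9 and 31.3 CPM, against 37.9 and 39.2 CPM with vehicle (log2 −0.29, SE 0.06, adjusted p = 0.0339 by edgeR's test). None of these 5 passed the test of Dex+Zj7 against Dex, where their log2 values were −0.20 to −0.07, with adjusted p of 0.969 to 0.999 by edgeR.

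The other 4 kept levels near those with Dex. *Hmgcs1* had a log2 value of −0.44 against vehicle (SE 0.06, adjusted p = 0.0076 by edgeR's test), the smallest adjusted p of the members in any comparison. *Sqle* stood at −0.35 (adjusted p = 0.0167 by edgeR) and *Srebf2* at −0.45 (adjusted p = 0.0159 by edgeR). *Ch25h* had counts of 14 and 12 with Dex+Zj7, against 95 and 32 with vehicle, or 0.244 and 0.197 CPM against 1.64 and 0.591 CPM (log2 −2.34, adjusted p = 0.0352 by edgeR), and the microglia markers summed to 146 and 139 CPM with Dex+Zj7. The call of *Ch25h* was lost with limma-voom, without vehicle replicate 1 and without either Dex+Zj7 library. *Ebp* and *Dhcr7* stood at −0.31 and −0.26 and missed the threshold, with adjusted p of 0.129 and 0.105 by edgeR. Of the other sensors, *Insig1* had 69.6 and 72.0 CPM with Dex+Zj7, against 82.2 and 78.8 CPM with vehicle. Its log2 value was −0.19 (95% interval −0.34 to −0.03, adjusted p = 0.131 by edgeR). *Srebf1* had 83.5 and 96.1 CPM with Dex+Zj7, *Scap* 111 and 116 CPM and *Insig2* 54.7 and 51.3 CPM. Their log2 values against vehicle were 0.02, 0.15 and 0.02, and none was called.

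Along the whole pathway, few steps stood above vehicle. Over the 20 enzymes from *Acat2* to *Dhcr7*, 0 were higher than with vehicle in either treated group (5.03% and 3.40% of all genes). Those lower numbered 4 with Dex (6.45% of all genes) and 6 with Dex+Zj7 (3.97% of all genes). Without vehicle replicate 1 these counts were 0 and 0, and without vehicle replicate 2 they were 0 for Dex and 1 for Dex+Zj7. The median of their log2 levels relative to the vehicle mean was −0.20 and −0.24 in the Dex libraries, −0.21 and −0.25 in the Dex+Zj7 libraries, and 0.00 and −0.00 in the vehicle libraries. The 4 treated libraries thus stood close together. Summed over the 20 enzymes, the level was 1018 and 984 CPM under Dex, 983 and 927 CPM under Dex+Zj7 and 1150.3 and 1132 CPM under vehicle. All 4 treated libraries lay below both vehicle libraries for 16 of the 29 members, where this held for 20.7% of all genes, and above them for 1 member, *Lbr*, where this held for 20.6% of all genes. The plot of every member by library shows these as rows that are blue in the 4 treated columns.

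Levels of different genes were compared per length, as FPKM, the fragments of a gene scaled by its transcript length and by the library total. The median of the members was 18.2 FPKM in vehicle tissue, against 3.37 FPKM over all genes. *Apoe* was far above the others, at a mean of 948 FPKM with Dex, 904 FPKM with Dex+Zj7 and 902 FPKM with vehicle. *Hmgcs1* came next, at 52.8, 48.5 and 66.2 FPKM with Dex, Dex+Zj7 and vehicle. *Msmo1*, *Srebf2* and *Cyp46a1* followed in vehicle at 40.9, 40.6 and 40.1 FPKM, and their vehicle libraries overlapped, so their order was not resolved. At the low end were *Lbr*, *Hsd17b7* and *Ch25h*, with 4.15, 3.47 and 0.751 FPKM in vehicle. Neighbours in the vehicle order overlapped in 11 of 28 pairs, and 8 members held the same rank in the 3 groups. *Srebf2* ranked 7 with Dex, 4 with Dex+Zj7 and 4 with vehicle, and *Ebp* ranked 26, 24 and 23. In the Dex libraries *Cyp46a1* ranked 3 by its mean, at 34.8 and 40.3 FPKM, and *Msmo1* had 29.5 and 34.8 FPKM. Their ranges met at 34.8 FPKM, so their order with Dex was not resolved either.

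**Figure D4:**
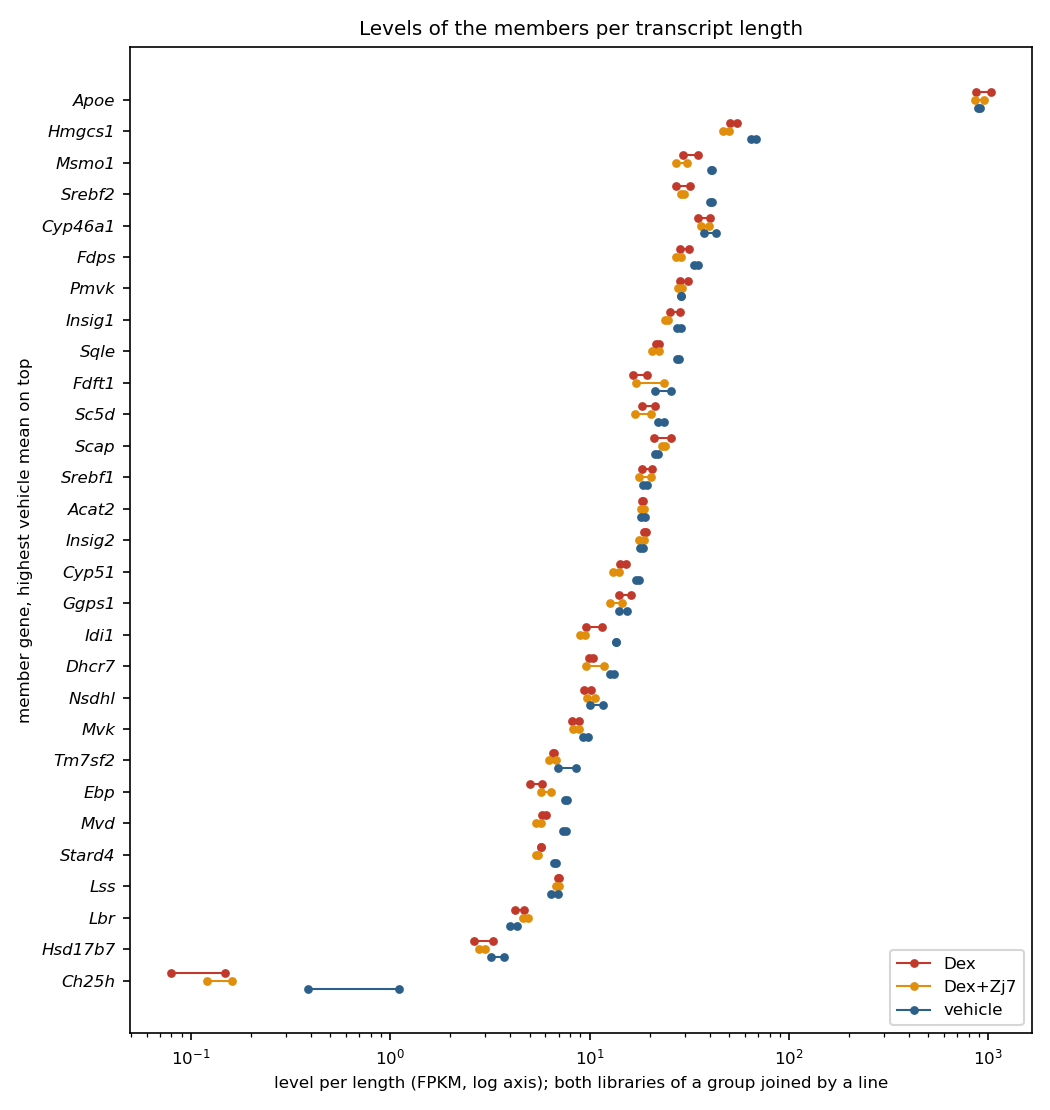
Level per transcript length of each member in FPKM on a log axis, with the libraries of a group joined by a line and the gene with the highest vehicle mean on top. *Apoe* stands alone near 902 FPKM, and *Ch25h* is lowest at 0.751 FPKM in vehicle.

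Other genes of sterol handling moved in both directions. For the lists that follow, 6.45% of all genes were lower and 5.03% higher with Dex than with vehicle. With Dex+Zj7 these shares were 3.97% and 3.40%. Of 15 other genes of sterol synthesis and SREBP control, 1 was lower and 1 was higher with Dex. Both encode subunits of NF-Y: *Nfya* had 12.1 and 13.7 CPM with Dex, against 16.6 and 18.6 CPM with vehicle (log2 −0.44, adjusted p = 0.0365 by edgeR), and *Nfyb* had 32.6 and 29.8 CPM, against 24.4 and 21.6 CPM (log2 0.44, adjusted p = 0.0154 by edgeR). The third subunit gene, *Nfyc*, had a log2 value of 0.19, and *Mbtps1*, the protease that makes the first cut in SREBPs, had 0.15, and neither passed the test. With Dex+Zj7, 0 of the 15 differed from vehicle by edgeR's quasi-likelihood test, with 3 lower and 4 higher at an unadjusted p under 0.05. The median of the list was 0.03 with Dex. The call of *Nfya* was lost without either vehicle library and that of *Nfyb* without vehicle replicate 2.

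Of 16 genes of sterol uptake and endosomal transfer, 2 were lower with Dex and 0 were higher, with a median of −0.10. *Lipa*, the lysosomal acid lipase that frees cholesterol from its esters, had 24.2 and 25.7 CPM with Dex, against 33.3 and 35.1 CPM with vehicle (log2 −0.46, adjusted p = 0.00786 by edgeR). *Scarb1*, a lipoprotein receptor, had 19.4 and 19.7 CPM, against 24.4 and 25.1 CPM (log2 −0.34, adjusted p = 0.0269 by edgeR). *Lipa* was also lower with Dex+Zj7 than with vehicle, at 24.9 and 25.4 CPM (log2 −0.44). *Lrpap1*, a chaperone of lipoprotein receptors, and *Stard3*, an endosomal sterol carrier, had log2 values of 0.19 and −0.33 with Dex and did not pass. With Dex+Zj7, 2 of the 16 were lower than with vehicle and 0 were higher. Without vehicle replicate 1 the lower genes were 1 with Dex and 0 with Dex+Zj7, and without vehicle replicate 2 they were 0 in both.

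Of 15 genes of LXR signalling and sterol efflux, 2 were higher and 2 were lower with Dex. *Abca1*, the main exporter of cellular cholesterol, had 119 and 102 CPM under Dex, 102 and 98.4 CPM under Dex+Zj7 and 75.9 and 64.5 CPM under vehicle (log2 0.65 with Dex and 0.51 with Dex+Zj7, adjusted p of 0.00575 and 0.0188 by edgeR). *Apod*, a lipocalin that carries lipids, had 293 and 258 CPM under Dex, 269 and 362 CPM under Dex+Zj7 and 156 and 136 CPM under vehicle (log2 0.92 and 1.12). The lower genes were *Mylip*, a ligase that marks lipoprotein receptors for breakdown (log2 −0.43 with Dex), and *Pltp*, the phospholipid transfer protein (log2 −1.04 with Dex and −0.89 with Dex+Zj7), of whose exon bases 19.3% overlap *Ctsa*. With Dex+Zj7 the counts were also 2 higher and 2 lower, the second lower gene being *Lcat*, which esterifies cholesterol in lipoproteins (log2 −0.77), named here to complete the count. Without vehicle replicate 2, 1 gene was lower with Dex, and with Dex+Zj7 1 was lower and 1 was higher. For *Abca1* and *Apod* each of the 4 treated libraries lay above both vehicle libraries.

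The isoprenoid branch, which uses farnesyl and geranylgeranyl diphosphate for prenylation, dolichol and ubiquinone, had 0 of 12 genes called in either direction against vehicle by edgeR's quasi-likelihood test, and before adjustment 2 had a p under 0.05 and were higher with Dex, and 1 with Dex+Zj7. Its median was 0.00 with Dex. *Trit1*, *Rabggtb*, *Nus1* and *Rabggta* had the smallest p, at log2 values of 0.26, 0.17, 0.12 and −0.10. Of 16 lipogenic genes known as SREBP-1 targets, 3 were lower and 2 higher with Dex, with a median of −0.19. *Fads2*, a fatty acid desaturase, had 186 and 190.4 CPM with Dex, against 250.1 and 251 CPM with vehicle (log2 −0.41, adjusted p = 0.00452 by edgeR). *Scd1*, the stearoyl-CoA desaturase, had a log2 value of −0.26 and *Fads1*, another fatty acid desaturase, named here to complete the count, −0.23. *Acaca*, acetyl-CoA carboxylase, had 199 and 208 CPM with Dex, against 154 and 150.3 CPM with vehicle (log2 0.42, adjusted p = 0.00389 by edgeR), and *Lpin1*, a phosphatidate phosphatase, had a log2 value of 0.32. With Dex+Zj7 the counts against vehicle were 4 lower (these 3 and the elongase gene *Elovl5*) and 1 higher (*Acaca*). Without vehicle replicate 1 the lipogenic counts were 1 lower and 1 higher with Dex, and 1 lower and 0 higher with Dex+Zj7. Without vehicle replicate 2 they were 1 lower with Dex and 2 lower with Dex+Zj7, with 0 higher. Between Dex+Zj7 and Dex, 0 genes of these 5 lists were called by edgeR's test, with 3 lower and 0 higher at an unadjusted p under 0.05.

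Markers of several cell types moved with these genes, where 6.45% of all genes were lower with Dex and 3.97% with Dex+Zj7 than with vehicle. Of 12 oligodendrocyte and myelin markers, 10 were lower with Dex, with a median of −0.82, and their summed level was 4307 and 4301 CPM under Dex, 4410.2 and 4681 CPM under Dex+Zj7 and 5376 and 5854 CPM under vehicle. Of 8 endothelial markers, 7 were lower with Dex, at 101 and 84.9 CPM under Dex, 147 and 185 CPM under Dex+Zj7 and 195 and 200.4 CPM under vehicle. Of 5 markers of oligodendrocyte precursors 3 were lower and 1 was higher, and of 6 markers of tanycytes and ependyma 3 were lower. Astrocyte markers had 2 of 8 lower and a median of −0.01, with a sum of 3779 and 3669 CPM under Dex, 3589.9 and 3785 CPM under Dex+Zj7 and 3749 and 3852 CPM under vehicle. Neuron markers had 0 of 8 called with Dex by edgeR's test (0 lower and 1 higher at an unadjusted p under 0.05) and a median of 0.04. With Dex+Zj7, 8 oligodendrocyte, 7 microglia, 4 tanycyte and ependyma, 2 astrocyte and 2 endothelial markers were lower than with vehicle. Without a vehicle library, 8 to 9 oligodendrocyte, 5 to 6 microglia and 6 to 7 endothelial markers were lower with Dex, and 6, 6 and 0 with Dex+Zj7. In these fits 0 to 1 precursor markers were lower with Dex, 1 to 2 of tanycytes and ependyma in each treated group, and 2 astrocyte markers with Dex and 1 with Dex+Zj7. Oligodendrocytes and astrocytes are known as main sites of sterol synthesis in brain, and the part of these marker shifts in the values of the members was not tested.

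**Figure D5:**
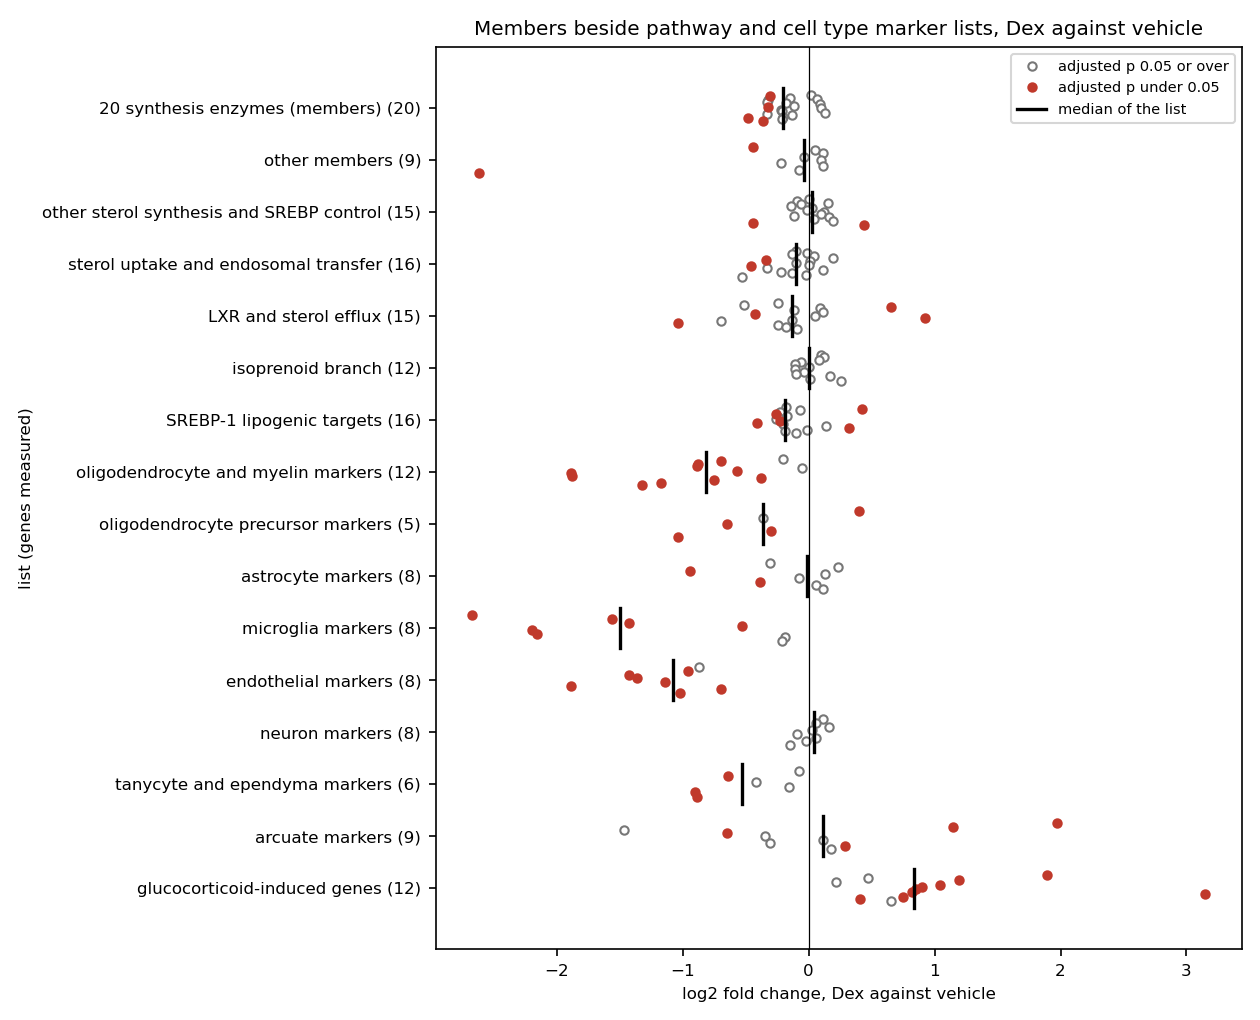
Log2 fold change of each gene with Dex against vehicle, by list, with the number of genes measured in brackets, filled points at an adjusted p under 0.05 and a bar at the median. The 20 synthesis enzymes have a median of −0.21, between that of the neuron markers (0.04) and those of the oligodendrocyte (−0.82) and microglia markers (−1.50).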

How the data were processed

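RNA of the ARC was sequenced in 6 libraries, 2 in each of 3 groups, taken with their replicate numbers from the sample labels. The authors removed low-quality reads, adapters, contaminants and PCR duplicates, aligned the rest to mm10 (Bowtie2 2.3.4.1, HISAT2 2.1.0), ran StringTie 2.1.3b for assembly and left out genes with a count of 0 in any library. The deposited read counts are whole numbers per gene, not normalized. Libraries were made with a stranded kit, and whether reads were counted by strand is not stated in the texts used here. The FPKM values the authors deposited served only for levels between genes. The 12 columns of TPM and of log2 normalized values were not used, nor were the authors' fold changes, p-values and adjusted p-values for each comparison.

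TMM factors of 0.987 to 1.01 scaled the counts, which were tested over all 21461 genes, with no further filter, by the quasi-likelihood test of edgeR 4.0.16 in R 4.3.3, in a fit of the 6 libraries without covariates. Benjamini-Hochberg adjustment covered all genes in each comparison, and a gene was called at an adjusted p under 0.05. The SE is the log2 fold change over the square root of the F statistic. At these depths every member but *Ch25h* had at least 482 counts per library, so the spread between libraries sets the precision. Overlaps of exons were taken from GENCODE M21 and positions from RefSeq (GRCm38.p6).

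The members and lists were chosen with earlier results of these data known. By rule, called members are given in every library, as are the sensors, and others by range. The 4 genes with the smallest p for Dex stand for each other pathway list. Alternatives were total counts or RLE factors in place of TMM, edgeR's exact test, DESeq2 1.42.0, voom of limma 3.58.1, a mean of at least 1 CPM, the groups compared alone, a replicate block, and leaving out each library. The deviations of same-numbered libraries correlated at 0.322 between Dex and vehicle. Between Dex+Zj7 and vehicle the value was 0.0230, and between Dex and Dex+Zj7 it was −0.0115. The numbers were not used as pairs in the main fit, and a part shared by same-numbered Dex and vehicle libraries was not tested. No pair of libraries agreed within counting noise.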

Additional observations from a re-analysis of the deposited data

How the results depend on the processing

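Over the 8 alternatives of tool, scaling, filter and samples, the count of members lower with Dex was 6 to 12 and the count lower with Dex+Zj7 against vehicle was 8 to 12, with 0 higher in either. With Dex it was 11 by edgeR's exact test and 10 with total counts in place of TMM, where 9.60% and 7.41% of all genes were lower, against 6.45% as reported. By limma-voom it was 8 for both treated groups, and by the exact test 11 for both. With the replicate number as a block it was 12 for Dex and 12 for Dex+Zj7 against vehicle. Same-numbered deviations correlated at only 0.322 between Dex and vehicle and 0.0230 between Dex+Zj7 and vehicle. Leaving out each library in turn gave 0 to 6 lower and 0 to 1 higher with Dex, and 0 to 11 lower for Dex+Zj7 against vehicle, with 0 higher. It gave 0 calls between Dex+Zj7 and Dex, as did the 8 alternatives. The medians of the members stayed between −0.21 and −0.10 for Dex, between −0.26 and −0.17 for Dex+Zj7 against vehicle and between −0.06 and −0.02 for Dex+Zj7 against Dex. With total counts the median of all genes moved by −0.03, and the split of all genes called for Dex+Zj7 against vehicle was 1033 lower and 584 higher, against 853 and 730 with TMM. Of the 159 values of single genes named, no call changed sign. In at least 1 setting 28 of the 42 called values lost the call and 19 of the other 117 gained one. The cause was not tested, except that a fit without a library has fewer samples. With 2 libraries a group, the smallest called difference of a member was −0.29 on the log2 scale (*Stard4*), and for *Ch25h* at 7 to 95 counts a library the size of the difference is uncertain.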
